A study of Mus musculus with 24 samples.

Results

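Hyaluronan and the proteoglycans that surround it form much of the pericellular matrix of fibroblasts, and 10 genes of this matrix were followed here, namely Has1, Has2, Has3, Hyal1, Hyal2, Cd44, Vcan, Dcn, Lum and Bgn. They were taken by name from the 55471 genes of the count tables as enzymes, a receptor and core proteins of one extracellular matrix system. The rule itself uses no measured value, but the system was chosen with earlier results of these data known. RNA was sequenced from mouse embryonic fibroblasts (MEFs, fibroblasts grown out of embryos, here 3T3 lines) in 24 libraries, 3 for each of 8 groups, to examine how loss of the kinase LKB1 (gene Stk11) and of the transcriptional coactivator CRTC2 affects inflammatory gene expression. The 8 groups were wild-type (WT) MEFs, LKB1 knockout (Lkb1-/-) MEFs, and clones A1 and A2 of LKB1/CRTC2 knockout (Lkb1-/-/Crtc2-/-) MEFs, each untreated (control) or given IL-1β during 6 h, at a dose that the study's methods give as 0.1 ng/mL for MEFs. All groups other than WT lacked LKB1. WT and Lkb1-/- MEFs are separate lines, so that line and genotype cannot be told apart, and clones A1 and A2 are each 1 clone grown from a single cell after CRISPR with guides to the first exon of Crtc2 in Lkb1-/- cells, so that clone and CRTC2 loss cannot be told apart. The sources do not say whether the 3 libraries of a group came from separate cultures, so that every test measures only the spread between these libraries.

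Hyaluronan is a long unbranched sugar chain that the Has enzymes spin out through the plasma membrane from UDP-glucuronic acid and UDP-N-acetylglucosamine. It is cut by hyaluronidases, held at the cell surface by the receptor CD44, and organized by hyaluronan-binding proteoglycans of the lectican family such as versican. The small leucine-rich proteoglycans decorin, lumican and biglycan are secreted core proteins that bind collagen fibrils and growth factors, and inflamed or remodelling connective tissue is known to change its content of all of these molecules.

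CRTC2 is a coactivator of the transcription factor CREB, and NF-κB and AP-1 are factors known to act downstream of IL-1β. The 250 bases before the start of the listed genes were searched on both strands for the CREB element (TGACGTCA) and its short form (TGACG), for AP-1 (TGANTCA), for a κB pattern (GGGNNNNNCC) and for a TATA box (TATAAA). RefSeq promoter sequence on GRCm38.p6 was at hand for 6 of the 10 genes, namely Has1, Hyal1, Hyal2, Cd44, Vcan and Bgn, and not for Has2, Has3, Dcn or Lum. The sequences of Has1, which held the full CREB element, and of Vcan and Bgn, the genes with the largest differences between lines among the 6, are shown 5′ to 3′ on the strand of the gene, with matches in capitals.
Has1, chr17:17855189-17855438, minus strand: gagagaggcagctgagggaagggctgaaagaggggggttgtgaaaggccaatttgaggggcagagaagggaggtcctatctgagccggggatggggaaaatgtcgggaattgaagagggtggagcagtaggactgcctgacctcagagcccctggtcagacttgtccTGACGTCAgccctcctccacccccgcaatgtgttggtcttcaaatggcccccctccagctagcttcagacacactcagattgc
Vcan, chr13:89742513-89742762, minus strand: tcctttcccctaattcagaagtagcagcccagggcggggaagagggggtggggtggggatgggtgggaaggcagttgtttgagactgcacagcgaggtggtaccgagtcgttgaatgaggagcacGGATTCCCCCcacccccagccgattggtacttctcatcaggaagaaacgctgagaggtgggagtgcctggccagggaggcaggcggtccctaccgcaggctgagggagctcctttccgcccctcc
Bgn, chrX:73483351-73483600, plus strand: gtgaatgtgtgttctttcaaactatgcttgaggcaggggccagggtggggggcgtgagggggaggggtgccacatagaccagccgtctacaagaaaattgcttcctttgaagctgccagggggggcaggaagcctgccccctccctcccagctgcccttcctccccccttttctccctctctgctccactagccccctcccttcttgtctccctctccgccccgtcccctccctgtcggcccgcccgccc
The capitals in Has1 mark the palindromic CREB element, 83 to 76 bases before the start, which contains the short form on both strands. The full element stood in 1.55% of 32851 promoter windows of the same length and the short form in 17.8%. The capitals in Vcan mark a match to the κB pattern, 125 to 116 bases before the start, a pattern so loose that 45.8% of all windows held it. Cd44 and Hyal2 also held the κB pattern, whereas Hyal1 and Bgn held none of the 5 motifs. The Hyal2 window, at 107568913–107569162, lies inside the span of the gene given below. AP-1 and TATA box letters, which stood in 6.75% and 12.4% of all windows, were in none of the 6 windows. A match or its absence in these letters is a description and says nothing on binding.

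Between 38842901 and 48594394 read pairs per library fell on genes (median 42431965), and 17522 genes passed a filter on low counts, 8 of the 10 listed genes among them. Has1 and Lum did not pass and are given as read pairs. Other genes are given as CPM, counts scaled to the size of the library, after TMM scaling, differences are log2 fold changes with their standard error (SE) from 1 edgeR quasi-likelihood fit, and a gene was called at a Benjamini-Hochberg adjusted p (FDR) under 0.05 over all genes tested. Stk11, the gene targeted in the Lkb1-/- line, fell from 86.0 ± 1.68 CPM in WT to 17.3 ± 1.24 CPM in Lkb1-/- controls (SD, n = 3 each), and no Lkb1-/- or clone library overlapped the WT libraries. Crtc2 was lower than in Lkb1-/- controls by a log2 fold change of -0.92 in clone A1 and -0.70 in clone A2, to 42.9 ± 2.11 and 49.8 ± 0.864 CPM from 81.1 ± 1.80 CPM (SD, n = 3 each). Of 8 fibroblast markers, 7 had 10 or more pairs in every library, although Pdgfra was at only 4.58 CPM in WT controls. The exception was Thy1, with 0 pairs in WT and at most 5 per group elsewhere. Epithelial markers summed to at most 0.499 CPM in any library, with Krt5 at 0 to 3 pairs per group. Between WT and Lkb1-/- controls Krt8 went from 22 to 4 pairs, Cdh1 from 14 to 6, Epcam from 4 to 30 and Krt18 from 3 to 9. Other lists moved with the line. The 4 muscle markers summed to 435–727 CPM in WT controls, 11.8–19.9 in Lkb1-/- controls and 2.10–3.80 in A2 controls. Nearly all of this was Acta2 in WT and Lkb1-/- MEFs (546 and 15.8 CPM), which myofibroblasts also express, whereas Des had the opposite order (0.0781, 0.311 and 0.914 CPM) and Myod1 and Myog were at or near 0. The 4 chondrocyte markers (Acan, Sox9, Col2a1, Col9a1) summed to 34.9–42.8 CPM in WT and 247–261 CPM in Lkb1-/- controls, with Col9a1 at or near 0. The 4 endothelial markers summed to 0.424–0.678 CPM in WT and 2.45–2.85 CPM in Lkb1-/- controls, of which Kdr gave 0.39 and 2.60 CPM, with Cdh5 at 0 in both. The 5 haematopoietic markers summed to 2.49–4.04 and 4.36–5.93 CPM, with Cd68, the most abundant, at 3.28 and 3.38 CPM, Csf1r at 0.0464 and 1.68 CPM, Adgre1 at 0 and Ptprc and Itgam at 1 to 4 pairs per group. The part of these differences in the results on the listed genes was not tested. In bulk RNA, fewer cells of a type and less RNA per cell cannot be told apart.

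Lkb1-/- MEFs carried far more mRNA for 4 of the matrix genes than WT MEFs. In control libraries, Vcan was about 960-fold higher (fitted 959.7), Dcn 527-fold, Bgn 358-fold and Has2 23.3-fold. Hyal1 and Cd44 rose by less than 2-fold, Hyal2 fell slightly and Has3 was not called. In all, 7 of the 8 tested genes were called, 6 higher and 1 lower, where 55.9% of all genes tested were called (30.1% higher and 25.8% lower). The median log2 fold change was 2.69 over the 8 genes and 0.04 over all genes. With IL-1β, 6 of the 8 were called, 5 higher and 1 lower, where 57.4% of all genes were called.

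**Figure D1:**
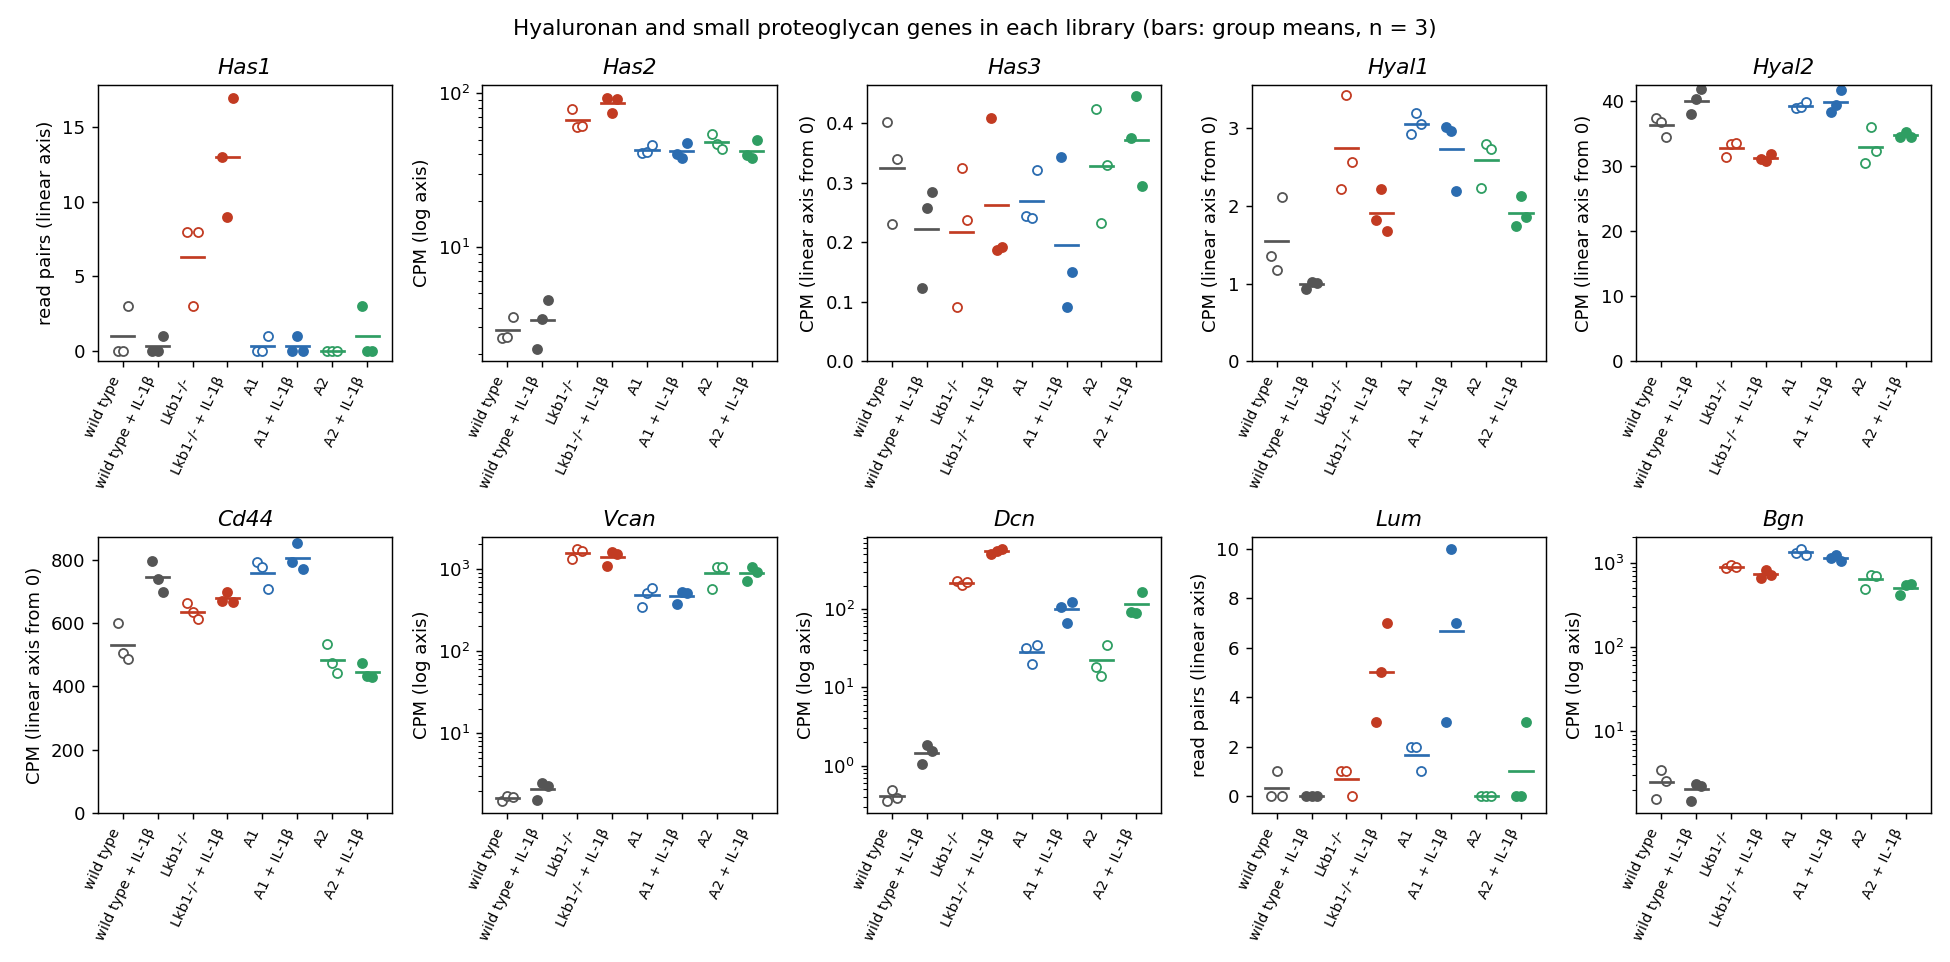
Level of each of the 10 genes in the 24 libraries, with 3 points per group (open for control, filled for IL-1β) and a bar at the group mean. The axis is log CPM for Has2, Vcan, Dcn and Bgn, linear CPM from 0 for Has3, Hyal1, Hyal2 and Cd44, and linear read pairs for Has1 and Lum; Has2, Vcan, Dcn and Bgn lie lowest in all 6 WT libraries.

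Has2 encodes the main hyaluronan synthase of mesenchymal cells (GRCm38 chromosome 15, 56665627–56694539, minus strand). WT controls held 2.57, 2.58 and 3.49 CPM and Lkb1-/- controls held 79.4, 60.0 and 61.5 CPM. Clone A1 controls held 41.1, 41.4 and 46.4 CPM and clone A2 controls held 54.3, 47.0 and 43.5 CPM. The clones thus lay between the lines, with no overlap with either. Has2 was higher in Lkb1-/- than in WT by a log2 fold change of 4.54 (SE 0.202, FDR = 5.62e-14) in controls and 4.69 (SE 0.201, FDR = 3.22e-14) with IL-1β. Against Lkb1-/- controls it was lower by a log2 fold change of -0.64 in clone A1 (SE 0.165, FDR = 0.00422) and -0.47 in clone A2 (SE 0.164, FDR = 0.032). The call in clone A2 was lost without A2 control 2, A2 control 3 or Lkb1-/- control 1 (FDR = 0.11 to 0.23). With IL-1β the same differences were -1.05 in A1 (FDR = 4.09e-05) and -1.03 in A2 (FDR = 6e-05), and the IL-1β libraries of the clones, at 37.9–49.4 CPM, lay below all IL-1β libraries of Lkb1-/- MEFs, at 74.2–94.0 CPM. Both clones remained far above WT, by a log2 fold change of 3.90 in A1 and 4.07 in A2 controls. Has2os, a transcript of the opposite strand that shares 182 exon bases with Has2, rose with it, from 0.27 to 2.19 CPM between WT and Lkb1-/- controls (log2 fold change 3.04, FDR = 2.98e-08).

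Has1 and Has3, the other hyaluronan synthases, were nearly silent. Has1 (chromosome 17, 17843323–17855205, minus strand) gave 67 read pairs over all 24 libraries, of which 19 were in Lkb1-/- controls and 39 in Lkb1-/- MEFs with IL-1β. The Lkb1-/- controls held 8, 3 and 8 pairs and the Lkb1-/- IL-1β libraries 13, 9 and 17 pairs. WT controls held 0, 0 and 3 pairs, clone A1 controls 0, 0 and 1, and clone A2 controls none, which allows up to 3 pairs over that group by counting error. Among IL-1β libraries WT held 0, 0 and 1 pairs, A1 held 0, 1 and 0, and A2 held 3, 0 and 0, so that every Lkb1-/- IL-1β library exceeded every library of the other genotypes. Has1 did not pass the filter and held most of its pairs in the Lkb1-/- groups, so that no test of it is given. The control values rest on 3 to 8 pairs per Lkb1-/- library. Fold changes from so few pairs depend on the prior count and are not given. Has3 (chromosome 8, 106870242–106884566, plus strand) held 4 to 21 pairs per library, 0.0906 to 0.446 CPM. Its 8 groups overlapped from each to the next in order of level, and it was called in no comparison. The log2 fold change of Has3 between Lkb1-/- and WT controls was -0.57 (SE 0.47, FDR = 0.322). Chtf8 overlaps Has3 on the opposite strand over 352 exon bases.

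Hyal2, a hyaluronidase anchored at the cell surface, and Hyal1, a lysosomal hyaluronidase, are neighbours on chromosome 9 (Hyal2 107567945–107572779 and Hyal1 107576927–107581710, both plus strand). Hyal2 varied little. WT controls held 37.4, 36.9 and 34.5 CPM, Lkb1-/- controls 31.5, 33.4 and 33.6 CPM, A1 controls 38.9, 39.1 and 39.9 CPM and A2 controls 30.5, 36.0 and 32.3 CPM. The WT and A1 controls lay above all Lkb1-/- controls, whereas the A2 controls overlapped them. Hyal2 was lower in Lkb1-/- than in WT by a log2 fold change of -0.14 in controls (SE 0.0603, FDR = 0.0466) and -0.36 with IL-1β (FDR = 3.11e-05). The first of these calls was lost without the filter on low counts (FDR = 0.308), with upper quartile scaling (0.331), with only the 2 groups in the fit (0.0875), and without Lkb1-/- control 2, WT control 1 or WT control 2 (0.0693, 0.145 and 0.12). Hyal2 was higher in A1 than in Lkb1-/- MEFs by 0.26 (log2, SE 0.0602, FDR = 0.00185) in controls and 0.35 (FDR = 0.000113) with IL-1β. The control call was lost without the filter on low counts (FDR = 0.0616). In A2 with IL-1β the difference in Hyal2 from Lkb1-/- MEFs was 0.15 (FDR = 0.0617, and 0.0252 with the replicate block). The 983 tested genes of chromosome 9 had a median log2 fold change of -0.12 between Lkb1-/- and WT controls and -0.11 with IL-1β, and of 0.32 between A1 and Lkb1-/- MEFs both in controls and with IL-1β.

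Hyal1 was low, at 1.36, 1.17 and 2.11 CPM in WT controls and 2.22, 3.43 and 2.57 CPM in Lkb1-/- controls. A1 controls held 2.93, 3.19 and 3.06 CPM and A2 controls 2.24, 2.80 and 2.73 CPM, within the range of the Lkb1-/- controls and above all WT controls. Hyal1 was higher in Lkb1-/- than in WT by a log2 fold change of 0.83 in controls (SE 0.206, FDR = 0.0017) and 0.94 with IL-1β (SE 0.216, FDR = 0.00077). Neither clone was called against Lkb1-/- MEFs, although with IL-1β the A1 difference of 0.51 was close to the threshold (FDR = 0.0532). It was called with the replicate block (FDR = 0.0241), unstranded counts (FDR = 0.0412), upper quartile scaling (FDR = 0.0432) and without A1 IL-1β 3 (FDR = 0.0214) or Lkb1-/- IL-1β 2 (FDR = 0.0408). Reads from Hyal1 are uncertain because it shares 1920 exon bases with Naa80 and 159 with Hyal3 on the same strand, and a read pair in a shared part cannot be given to one of them. Naa80 itself was not called between Lkb1-/- and WT controls (log2 fold change 0.13, FDR = 0.516) and was higher in A1 than in Lkb1-/- controls by 0.50 (FDR = 0.019).

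Cd44, the main cell surface receptor for hyaluronan (chromosome 2, 102811141–102901665, minus strand), was abundant in all groups. WT controls held 599, 507 and 488 CPM and Lkb1-/- controls 663, 634 and 612 CPM. A1 controls held 793, 777 and 707 CPM and A2 controls 533, 475 and 443 CPM. The clones thus stood on opposite sides of Lkb1-/- MEFs, A1 above every Lkb1-/- control and A2 below. Cd44 was higher in Lkb1-/- than in WT controls by a log2 fold change of 0.26 (SE 0.0815, FDR = 0.00957), a call that was lost without Lkb1-/- control 1 (FDR = 0.16) or WT control 3 (FDR = 0.206). With IL-1β the difference was -0.13 (FDR = 0.167, and 0.0405 with the replicate block). In A1 it was higher than in Lkb1-/- MEFs by 0.25 (log2) both in controls (FDR = 0.0187) and with IL-1β (FDR = 0.0209). Leaving out 1 of 4 libraries in controls (A1 control 1 or 2, Lkb1-/- control 2 or 3) moved the FDR to between 0.0517 and 0.0757, and 1 of 3 with IL-1β (A1 IL-1β 2, Lkb1-/- IL-1β 1 or 3) to between 0.0542 and 0.0952. In A2 Cd44 was lower than in Lkb1-/- MEFs by -0.40 (log2, FDR = 0.000782) in controls and -0.61 (FDR = 8.53e-06) with IL-1β.

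Vcan, which encodes the large hyaluronan-binding chondroitin sulfate proteoglycan versican (chromosome 13, 89655312–89742509, minus strand), showed the largest difference between the lines among the listed genes. WT controls held 1.52, 1.70 and 1.67 CPM, and Lkb1-/- controls held 1307, 1729.6 and 1661 CPM. The clones lay in between without touching either line, at 345, 505 and 577 CPM in A1 controls and 562, 1050.3 and 1063 CPM in A2 controls. The log2 fold change of Vcan between Lkb1-/- and WT was 9.91 in controls (SE 0.347, FDR = 1.15e-15) and 9.37 with IL-1β (FDR = 1.9e-15). Against Lkb1-/- MEFs Vcan was lower in A1 by -1.72 (log2, SE 0.231, FDR = 6.44e-06) in controls and -1.56 (FDR = 1.75e-05) with IL-1β. In A2 it was lower by -0.81 (SE 0.226, FDR = 0.00843) and -0.64 (FDR = 0.0331). The IL-1β call in A2 was lost without A2 IL-1β 1, Lkb1-/- IL-1β 2 or Lkb1-/- IL-1β 3 (FDR = 0.0876 to 0.133). Both clones remained above WT, by a log2 fold change of 8.19 in A1 and 9.09 in A2 controls.

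Dcn encodes decorin, a small proteoglycan that binds collagen fibrils and TGF-β (chromosome 10, 97479609–97518143, plus strand). WT controls held 0.357, 0.483 and 0.391 CPM and Lkb1-/- controls 228, 205 and 222 CPM. A1 controls held 31.7, 19.8 and 34.3 CPM and A2 controls 18.0, 14.2 and 35.2 CPM. Both clones lay far below every Lkb1-/- control and far above every WT control. Dcn was higher in Lkb1-/- than in WT by a log2 fold change of 9.04 in controls (SE 0.46, FDR = 4.95e-13) and 8.53 with IL-1β (FDR = 2.36e-13). It was 7.63-fold lower in A1 than in Lkb1-/- controls (log2 fold change -2.93, SE 0.303, FDR = 2.32e-07) and 9.7-fold lower in A2 (-3.28, SE 0.308, FDR = 9.73e-08). With IL-1β the log2 fold changes were -2.47 in A1 (FDR = 1.42e-06) and -2.24 in A2 (FDR = 5.48e-06). Of the 8 tested genes, Dcn had the largest fall in both clones. The 814 tested genes of chromosome 10 had a median log2 fold change of -0.44 between Lkb1-/- and WT controls, with 149 called higher and 401 lower, and of 0.39 and 0.27 between the clones A1 and A2 and Lkb1-/- controls. The 11 tested genes within 2 Mb of Dcn had a median of -0.66 between the lines, so that Dcn moved opposite to its chromosome in all of these comparisons.

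Lum, which encodes lumican, another collagen-binding proteoglycan, lies beside Dcn (chromosome 10, 97565128–97572703, plus strand) but gave only 46 read pairs in all. Lkb1-/- controls held 1, 1 and 0 pairs and WT controls 0, 1 and 0. With IL-1β, Lkb1-/- MEFs held 3, 5 and 7 pairs and A1 held 3, 10 and 7, whereas WT held 0, 0 and 0 and A2 0, 0 and 3. With the WT group set at a limit of 3 pairs, Lum was 4.64-fold higher in Lkb1-/- than in WT MEFs with IL-1β. That ratio takes the 15 Lkb1-/- pairs as exact. Kera and Epyc, the other small leucine-rich proteoglycan genes of this cluster, held at most 4 and 2 pairs per group.

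Bgn, which encodes biglycan, a close relative of decorin that also binds Toll-like receptors (chromosome X, 73483602–73495933, plus strand), divided the clones. WT controls held 1.56, 3.43 and 2.50 CPM and Lkb1-/- controls 855, 935 and 893 CPM. A1 controls held 1318, 1445 and 1231 CPM, above every Lkb1-/- control, and A2 controls held 492, 709 and 700.4 CPM, below every one. Bgn was higher in Lkb1-/- than in WT by a log2 fold change of 8.48 in controls (SE 0.242, FDR = 5.04e-17) and 8.50 with IL-1β (FDR = 5.63e-17). In A1 it was higher than in Lkb1-/- MEFs by 0.57 (log2, SE 0.168, FDR = 0.0103) in controls and 0.64 (FDR = 0.00475) with IL-1β. In A2 it was lower by -0.50 (SE 0.168, FDR = 0.0272) and -0.54 (FDR = 0.0161). The A2 calls were each lost without 1 of several libraries, in controls A2 control 1 or Lkb1-/- control 2 or 3 (FDR = 0.0546 to 0.126) and with IL-1β A2 IL-1β 1 or Lkb1-/- IL-1β 2 (FDR = 0.0791 and 0.0817).

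**Figure D2:**
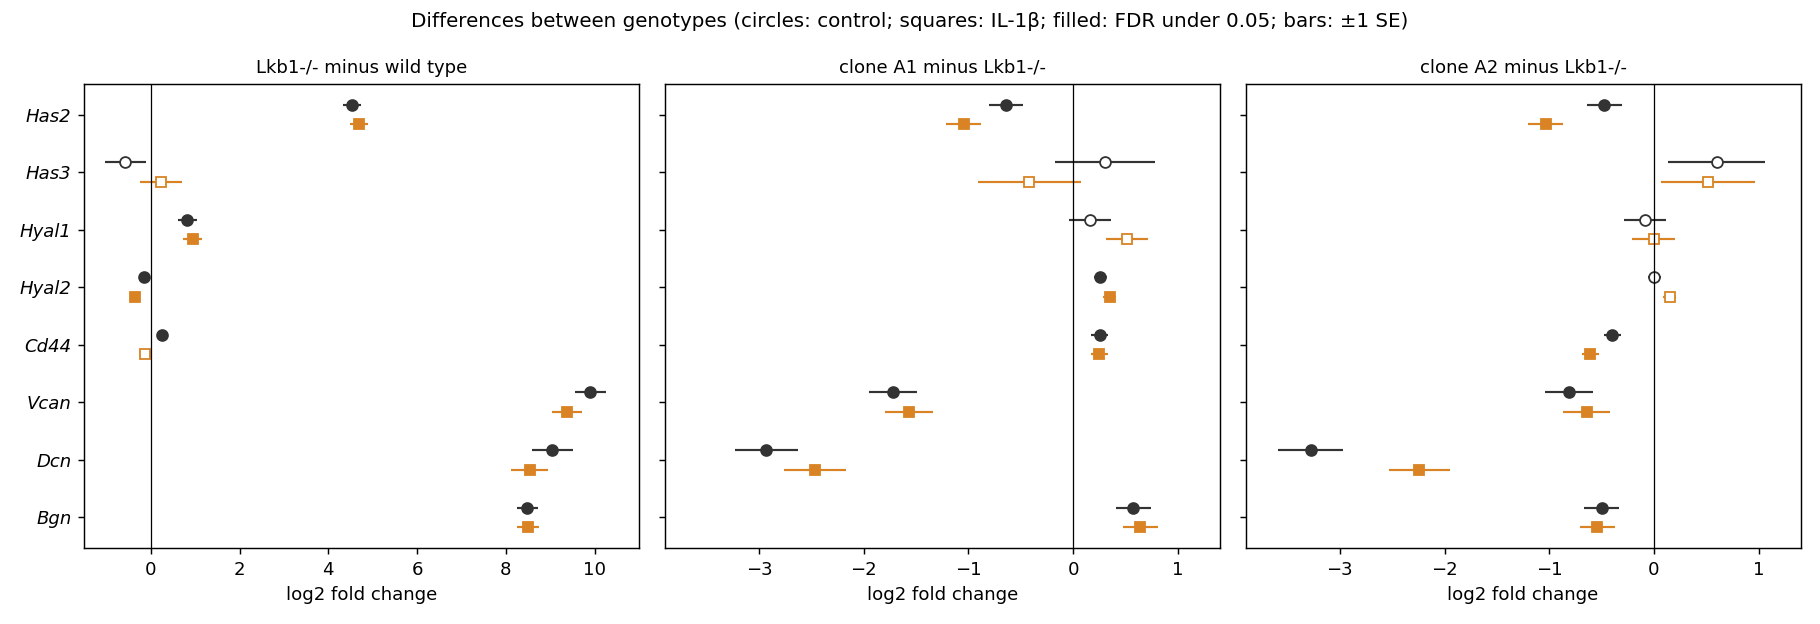
Log2 fold change with 1 SE of the 8 tested genes for Lkb1-/- minus WT, clone A1 minus Lkb1-/- and clone A2 minus Lkb1-/- (circles control, squares IL-1β, filled where the FDR was under 0.05). Vcan, Dcn and Bgn lie above 8 in the first panel, Dcn lies lowest in both clone panels, and Bgn and Cd44 lie above 0 in A1 and below 0 in A2.

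Relative to Lkb1-/- controls, A1 thus had 6 of the 8 tested genes called, Has2, Vcan and Dcn lower and Hyal2, Cd44 and Bgn higher, where 35.3% of all genes were called (18.9% higher and 16.4% lower). A2 had 5 called, Has2, Cd44, Vcan, Dcn and Bgn, all lower, where 32.3% of all genes were called (17.1% higher and 15.1% lower). With IL-1β, 6 and 5 of the 8 were called, beside 36.7% and 32.8% of all genes. The comparisons of A1 and A2 share their Lkb1-/- libraries and are not independent of each other. Against WT controls, 6 of the 8 were called in A1, all higher, and 6 in A2, 5 higher and Hyal2 lower, beside 55.4% and 60.6% of all genes. With IL-1β, 5 were called in A1, all higher, and 7 in A2, 5 higher and Hyal2 and Cd44 lower, beside 56.9% and 60.8% of all genes. The Hyal2 call in A2 against WT controls (log2 fold change -0.14, FDR = 0.0498) was lost without A2 control 1 or 3 or WT control 1 or 2 (FDR = 0.0502 to 0.147).

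The clones were also compared with each other, a comparison chosen after their values had been seen. In controls, 4 of the 8 genes were called, Vcan higher in A2 and Hyal2, Cd44 and Bgn lower, where 32.5% of all genes were called. The log2 fold change of A2 against A1 was -1.07 for Bgn (FDR = 4.8e-05), -0.65 for Cd44 (FDR = 3.55e-06) and 0.91 for Vcan (FDR = 0.00385). With IL-1β the 4 genes were called again in the same directions, beside 30.7% of all genes, with -1.18 for Bgn, -0.85 for Cd44 and 0.92 for Vcan. Has2 and Dcn, which were lower in both clones, were not called between them in controls, with differences of 0.17 for Has2 (95% interval -0.16 to 0.49) and -0.35 for Dcn (95% interval -0.92 to 0.22). The Dcn difference was called without A2 control 3, at -0.81 (FDR = 0.032), and without the filter on low counts, at -0.36 (FDR = 0.000303). With IL-1β the difference in Hyal1 was -0.51 (FDR = 0.0608, and 0.0263 with the replicate block).

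In the fit without a block, few of these genes were called with IL-1β for 6 h. Dcn was called higher in Lkb1-/- MEFs and in both clones, and Cd44 in WT MEFs. That was 1 of the 8 tested genes in each genotype, where 2.26% of all genes were called in WT, 4.74% in Lkb1-/-, 1.99% in A1 and 5.68% in A2. Same-numbered libraries deviated together in these comparisons. With the replicate number as a block, the genes called over all those tested rose from 396 to 1629 in WT and from 831 to 2601 in Lkb1-/-. They rose from 348 to 1684 in A1 and from 995 to 3133 in A2. Of the listed genes, 3 were called in Lkb1-/- and 2 in A2 with that block. With the block within genotype, 3 were called in WT, 4 in Lkb1-/-, 2 in A1 and 3 in A2. The share over all genes in that setting is not given.

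Dcn with IL-1β reached 503, 558 and 581 CPM in Lkb1-/- MEFs, 107, 65.5 and 124 CPM in A1 and 92.7, 88.4 and 167 CPM in A2. In WT it reached 1.04, 1.82 and 1.55 CPM. In all 4 genotypes every IL-1β library lay above every control library. The log2 fold change of Dcn with IL-1β was 1.33 in Lkb1-/- (SE 0.282, FDR = 0.00565), 1.79 in A1 (SE 0.293, FDR = 0.000965) and 2.37 in A2 (SE 0.298, FDR = 2.21e-05). In WT it was 1.84 (SE 0.603) and was not called (FDR = 0.152, and 0.0551 with the replicate block). The WT difference was called by DESeq2 (FDR = 0.000208), with only the groups compared (FDR = 0.0164), with the replicate block within genotype (FDR = 2.38e-05) and without the filter on low counts (FDR = 5.03e-16). The response of Dcn differed between genotypes by a log2 difference of -0.51 for Lkb1-/- minus WT (95% interval -1.84 to 0.83), 0.46 for A1 minus Lkb1-/- (-0.32 to 1.24) and 1.04 for A2 minus Lkb1-/- (0.26 to 1.82), none of them called (FDR = 1 for each, and 0.168 for A2 with the replicate block). Whether the clones were called depended on the fit. With the replicate block within genotype the difference was called for A2 (1.07, FDR = 3.67e-07) and A1 (0.46, FDR = 0.00336), and likewise without the filter on low counts (FDR = 1.73e-15 and 0.0137). In order of level, the 2 Lkb1-/- groups stood highest, followed by the IL-1β groups of the clones, which overlapped each other, the control groups of the clones, which also overlapped, and the 2 WT groups.

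Cd44 with IL-1β reached 795, 740.1 and 699 CPM in WT, above all WT controls (log2 fold change 0.49, SE 0.0816, FDR = 0.00111). In the other genotypes the log2 fold change was 0.09 in Lkb1-/- (FDR = 0.693), 0.09 in A1 (FDR = 0.811) and -0.12 in A2 (FDR = 0.518). The response in Lkb1-/- minus that in WT was -0.40 (SE 0.115) and did not pass the threshold (FDR = 0.276), but passed it with the replicate block (FDR = 0.00623) and with the block within genotype (FDR = 0.000114). Has2 in Lkb1-/- MEFs reached 94.0, 74.2 and 91.9 CPM with IL-1β, overlapping the controls, with a log2 fold change of 0.37 (FDR = 0.277, and 0.0436 with the replicate block). Bgn with IL-1β held 649, 826 and 723 CPM in Lkb1-/- MEFs, all below the controls, with a log2 fold change of -0.29 (FDR = 0.472, and 0.0459 with the replicate block). In A2 the IL-1β libraries held 416, 541 and 552 CPM of Bgn, with a log2 fold change of -0.33 (FDR = 0.316, and 0.0218 with the replicate block). Without a block and with the filter, none of the 8 genes was called for a difference in response between genotypes. Over all genes, 0.245% were called for Lkb1-/- minus WT and 0.0285% for A1 minus Lkb1-/-. None was called for A2 minus Lkb1-/- by edgeR, where 388 genes had an unadjusted p under 0.05 and 18 were called with the replicate block.

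**Figure D3:**
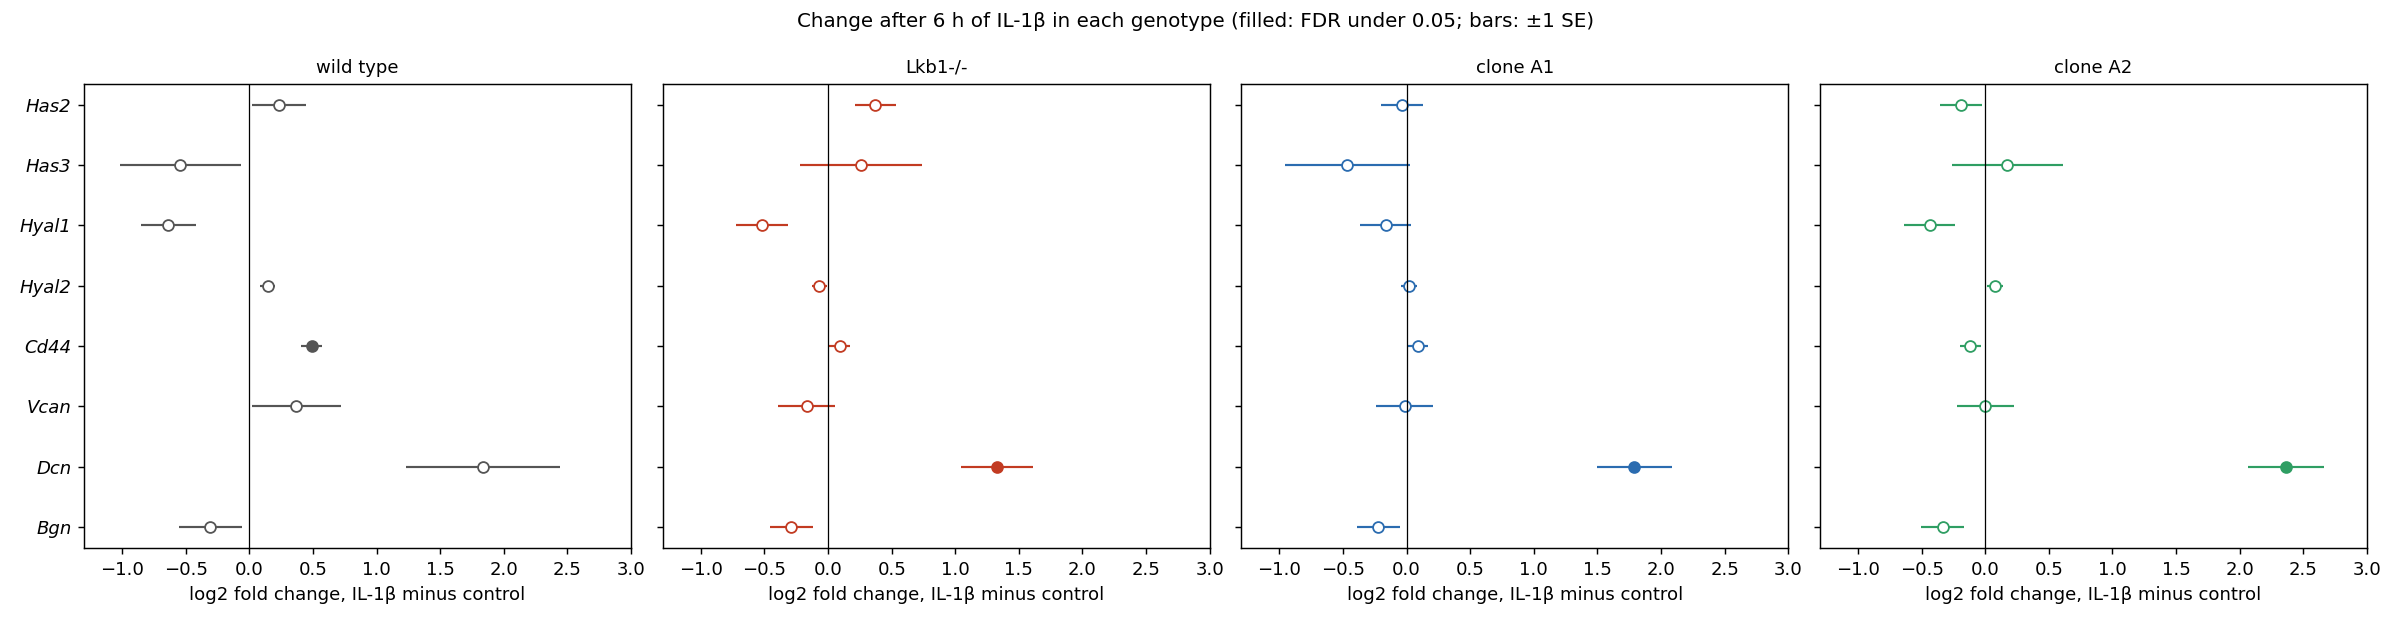
Log2 fold change with 1 SE of the 8 tested genes for IL-1β minus control in each of the 4 genotypes, filled where the FDR was under 0.05. Dcn is the filled point in Lkb1-/-, A1 and A2 (1.33, 1.79 and 2.37) and Cd44 in WT (0.49).

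Per length of exon, the order of the genes changed with the line. In WT controls Cd44 stood at 78.4 CPM per kb and Hyal2 at 11.02, whereas Has2 stood at 0.68, Bgn at 0.41, Vcan at 0.113 and Dcn at 0.0703. In Lkb1-/- controls Bgn at 147 and Vcan at 108 CPM per kb stood above Cd44 at 93.9, with Dcn at 37.4 and Has2 at 15.8 following. In A1 controls Bgn stood at 218, Cd44 at 112, Vcan at 32.9, Has2 at 10.1 and Dcn at 4.9 CPM per kb. In A2 controls the values were 104 for Bgn, 71.4 for Cd44, 61.7 for Vcan, 11.4 for Has2 and 3.85 for Dcn. Decorin mRNA, above that of Has2 in Lkb1-/- MEFs, was thus below it in the controls of both clones on this scale. With IL-1β it was above Has2 in both clones too, at 19.9 against 9.99 CPM per kb in A2 and 17 against 9.9 in A1.

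**Figure D4:**
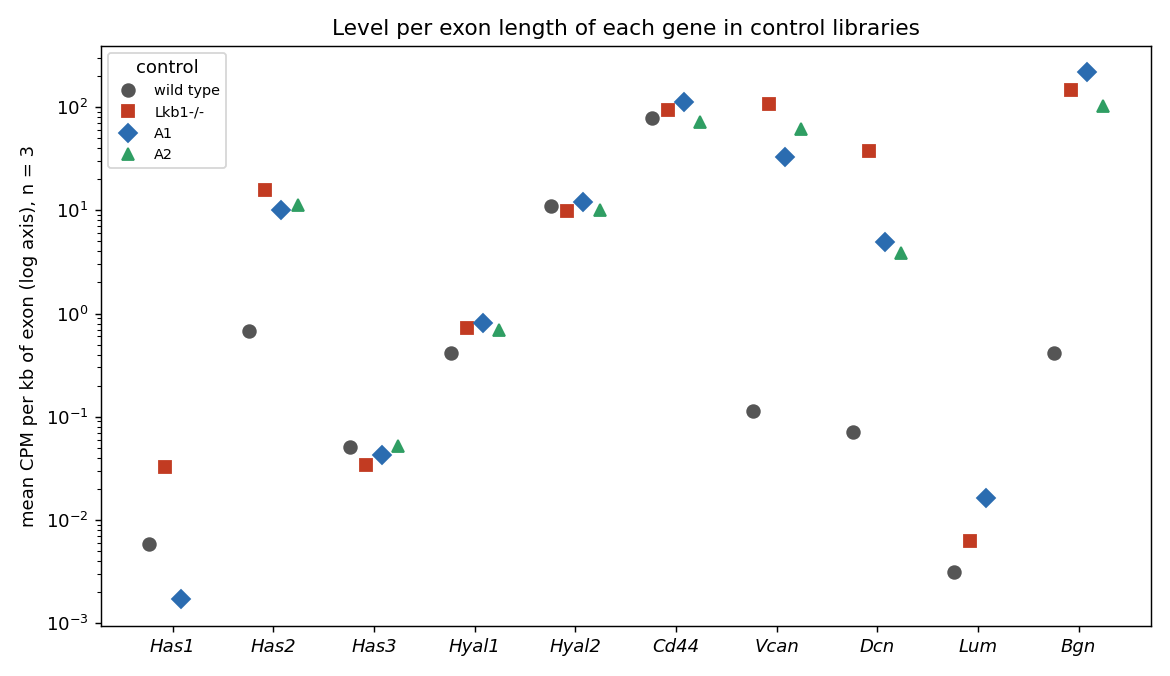
Mean CPM per kb of exon of the 10 genes in the control libraries of the 4 genotypes, on a log axis (groups at 0 are not drawn, namely Has1 and Lum in A2). The 4 genotypes lie close together for Cd44 and for Hyal2, whereas WT lies far below the others for Vcan, Dcn, Bgn and Has2.

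The genes around this system were followed in 4 lists. Of the 7 genes that make the hyaluronan precursors, all were tested, and 4 were higher and 1 lower in Lkb1-/- than in WT controls, where 55.9% of all genes tested were called, 30.1% higher and 25.8% lower. The median log2 fold change of the 7 was 0.25. Ugdh, which makes UDP-glucuronic acid, rose from 136 to 239 CPM (log2 fold change 0.81, FDR = 2.09e-09) and was lower again in A1 at 146 CPM (-0.70, FDR = 1.27e-07) and A2 at 176 CPM (-0.44, FDR = 5.74e-05). Gfpt2, an isoform of the enzyme at the head of the hexosamine pathway, had 2 read pairs in WT controls, 8.6 CPM in Lkb1-/- controls, 4.06 CPM in A1 and 19.3 CPM in A2, and so was called on opposite sides of Lkb1-/- MEFs in the clones (log2 fold change -1.08 and 1.16). Gfpt2 passed the filter only through the groups without LKB1 and is in the counts of this list. Uap1, which completes UDP-N-acetylglucosamine, was the gene that fell (-0.59, FDR = 0.000127).

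Of 22 other genes of hyaluronan turnover and binding, 13 were tested, and 7 were higher and 2 lower in Lkb1-/- than in WT controls (median log2 fold change 1.12), beside 30.1% and 25.8% of all genes. Tnfaip6, whose product TSG-6 binds hyaluronan in inflamed tissue, had 0 pairs in WT and 2335 in Lkb1-/- controls (18.1 CPM), at least 762-fold higher with 3 pairs over the WT group as the limit. It was also called with IL-1β in Lkb1-/- MEFs (log2 fold change 0.56, FDR = 0.0111). Cemip, a hyaluronan-degrading protein, rose by 3.48 (FDR = 2.05e-10), whereas its relative Cemip2 fell by 0.51 on the log2 scale (FDR = 0.000866). Cemip was higher again in A1 than in Lkb1-/- controls, by 0.87 (FDR = 0.00241). In A2 controls it had a lower mean, 6.64 CPM against 8.54 CPM in Lkb1-/- controls, with overlapping libraries. Hapln1, a link protein that ties lecticans to hyaluronan, had 0 pairs in WT and 87 in Lkb1-/- controls, at least 28.4-fold higher, and 14 in A1 and 6 in A2 controls. It passed the filter only through the Lkb1-/- libraries, so that no test of it is given, although it is in the counts of this list. Tnfaip6 passed only through the groups without LKB1 and is in these counts too. Hapln4, another link protein, rose by 3.72 and was higher still in A1 and A2 by 0.99 and 0.91. Hmmr, a hyaluronan-binding protein of the mitotic spindle, fell by 0.22 on the log2 scale (FDR = 0.0115).

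Of 16 other lecticans and small leucine-rich proteoglycans, 9 were tested, and 5 were higher and 3 lower (median log2 fold change 0.62), beside 30.1% and 25.8% of all genes. Acan, the lectican aggrecan, had 6 pairs in WT controls and 10405 in Lkb1-/- controls (80.2 CPM), and was lower in A1 (-1.08, FDR = 0.00435) and A2 (-1.93, FDR = 2.71e-05). Acan passed the filter only through the groups without LKB1 and is in the counts of this list. The small leucine-rich proteoglycans Ogn and Aspn went the other way. Ogn fell from 59.8 ± 18.2 to 1.04 ± 0.476 CPM (SD, n = 3 each, log2 fold change -5.84, FDR = 8.06e-10), and was higher than in Lkb1-/- controls in A1 at 28.5 CPM (4.77, FDR = 9.94e-08) and in A2 at 4.0 CPM (1.93, FDR = 0.0031). Aspn held 1293 pairs in WT controls, 5 in Lkb1-/-, 23 in A1 and 7 in A2 controls. It passed the filter through the WT libraries, where it is high, so that no test of it is given, although it is in the count of lower genes. Tsku was called higher with IL-1β in all 4 genotypes, by a log2 fold change of 0.53 in WT, 0.82 in Lkb1-/-, 0.42 in A1 and 0.85 in A2. Fmod, a relative of lumican, did not pass the filter.

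All 22 genes of chondroitin and dermatan sulfate chain synthesis were tested, and 13 were higher and 6 lower in Lkb1-/- than in WT controls (median log2 fold change 0.36), beside 30.1% and 25.8% of all genes. Xylt1, which starts the chains on the core protein, had 0 pairs in WT and 5168 in Lkb1-/- controls, at least 1686-fold higher, and was lower in A1 (-1.54, FDR = 3.85e-06) and A2 (-0.59, FDR = 0.0193). Xylt1 passed the filter only through the groups without LKB1 and is in the counts of this list. Csgalnact1, which commits a chain to chondroitin, rose by 6.20 (FDR = 1.82e-12). Chst7, a sulfotransferase, fell by 3.56 on the log2 scale (FDR = 8.21e-13). The epimerase genes Dsel and Dse had log2 fold changes of -2.91 and -0.48 and the polymerase gene Chsy1 one of -0.55, all called. Against Lkb1-/- controls, the number higher and lower in A1 was 1 and 3 for precursor synthesis, 5 and 2 for turnover and binding, 3 and 1 for the proteoglycans and 5 and 6 for chain synthesis, beside 18.9% and 16.4% of all genes. In A2 the same numbers were 3 and 2, 1 and 2, 1 and 2, and 8 and 4, beside 17.1% and 15.1% of all genes.

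The genes most like each listed gene over the 24 libraries, by Pearson's r of log2 CPM among genes with a mean log2 CPM above 3, were Pde4b (0.993) and Hs3st1 (0.991) for Has2, Emb (0.994) and Pde4b (0.993) for Vcan, Adam15 (0.998) and B4galt6 (0.995) for Bgn, and Gm13230 (0.98) and Sdc1 (0.972) for Dcn. For Cd44 they were Nfx1 (0.924) and Nemf (0.91), for Hyal2 Ptpn23 (0.915) and Carm1 (0.907), for Hyal1 Pik3r3 (0.906) and Dlc1 (0.905), and for Has3 Zfp820 (0.565) and Cenpk (0.559). Among the listed genes r was highest for Has2 with Vcan (0.985), followed by Vcan with Bgn (0.97) and Has2 with Bgn (0.964). These are descriptions over libraries that share lines and treatments. They were not computed without the 6 WT libraries.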

How the data were processed

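Total RNA of 24 MEF libraries was sequenced as 50 bp read pairs. The authors trimmed reads with Trim Galore 0.6.0 and aligned them to mm10 with STAR 2.7.8a, and the deposited values are raw gene counts in read pairs, given without regard to strand and by strand. The reverse-strand column was used, which held 95.5% to 96.0% of the stranded pairs. Lines that name no gene (26.7% to 34.4% of pairs) stayed out of library sizes and tests. The labels name a SMARTER kit and the study's methods a KAPA kit for the libraries.

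Gene IDs were given symbols and coordinates from a GENCODE annotation of GRCm38. Counts were filtered with filterByExpr (minimum count 10, minimum total 15), scaled by TMM and fitted with edgeR 4.0.16 (limma 3.58.1, R 4.3.3) as a quasi-likelihood model with 1 term per group over all libraries, as in the study's methods. Genes were called at an FDR under 0.05 over 17522 genes, and SEs are the absolute log2 fold change over the square root of F. The fit was tested on simulated data. The common biological coefficient of variation was 0.129. Floors and limits in read pairs cover counting error only, and only that of the group at 0 pairs.

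Replicate numbers were taken to pair libraries where every same-numbered correlation of deviations between the groups compared was over 0.1. This held for both clones against Lkb1-/- MEFs with IL-1β, A2 against Lkb1-/- controls and Lkb1-/- against WT MEFs with IL-1β. It also held for A2 against A1 with IL-1β, the 4 IL-1β comparisons and the A2 minus Lkb1-/- response. Over all groups, with those where the rule failed, the 84 correlations ranged from 0.0355 to 0.589. Alternatives were unstranded counts, RLE and upper quartile scaling, no filter, DESeq2 1.42.0, the replicate block (overall and within genotype), fits of the compared groups alone, and fits that left out 1 library each.

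The listed genes, the 4 lists and the tests were chosen with earlier results of these data known. Named from the lists were preset partner genes and, per list and direction, up to 2 called genes with the largest change between Lkb1-/- and WT controls and a mean log2 CPM above 1, besides genes that overlap a listed gene and the 2 genes most correlated with each.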

Additional observations from a re-analysis of the deposited data

Results flagged for a closer look

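Clone A2 was tested directly against clone A1, a comparison chosen after their values had been seen. In it 4 of the 8 tested genes were called, both in controls and with IL-1β. Of all genes tested, 32.5% were called in controls and 30.7% with IL-1β. The log2 difference, A2 minus A1, was -0.65 in controls and -0.85 with IL-1β for Cd44, -1.07 and -1.18 for Bgn, 0.91 and 0.92 for Vcan, and -0.26 and -0.20 for Hyal2. For Bgn and Cd44 the clones moved to opposite sides of Lkb1-/- MEFs, whereas Vcan was lower than in Lkb1-/- MEFs in both clones and further down in A1. The Hyal2 difference with IL-1β lost its call without A1 IL-1β replicate 3 (FDR = 0.0748) and without the filter on low counts (FDR = 0.154). Both clones carry the Crtc2 knockout, and each is 1 clone.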

How the results depend on the processing

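Of 1187 alternatives to 88 values of single genes, 1108 kept the direction and the side of the threshold, 38 lost the call, 33 gained one and 8 reversed, and 61 values held under every alternative run for them. All calls on Has2, Vcan, Dcn and Bgn between Lkb1-/- and WT MEFs were among those kept.

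The number of listed genes called with IL-1β moved most. In WT it was 1, and 2 with DESeq2, without the filter on low counts or with only the groups compared, and 3 with the replicate block within genotype. In Lkb1-/- it was 1, and 3 without the filter or with the replicate block, and 4 with the replicate block within genotype. In A1 it was 1, and 2 with the replicate block within genotype. In A2 it was 1, and 2 without the filter or with the replicate block, and 3 with the replicate block within genotype. Over all genes the replicate block also raised the calls, from 831 to 2601 in Lkb1-/- and from 995 to 3133 in A2. No share over all genes is given for the other settings, so these rises cannot be read as particular to the listed genes. For response differences the number of listed genes called was 0. It became 1 for Lkb1-/- minus WT with either replicate block (Cd44, -0.40, FDR = 0.00623 with the block on all libraries), 1 for A1 minus Lkb1-/- (Dcn) and 2 for A2 minus Lkb1-/- (Has2 and Dcn) without the filter or with the replicate block within genotype. Over all genes the replicate block moved those 3 counts from 43 to 311, from 5 to 36 and from 0 to 18. The replicate block changed no other call on a listed gene beyond those given in the text and Cd44 in A2 against WT controls (FDR = 0.0353 against 0.159). The cause of these changes was not tested.

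Reversed were A2 against A1 with IL-1β for Has2 (0.01), at -0.00346 without the filter, -0.00321 with only the groups compared, -0.00999 with upper quartile scaling and -0.117 to 0.104 over the fits that left out a library (3 below 0), and for Dcn (0.23), at -0.134 to 0.422 over such fits (2 below 0). Neither was called in any of these. The Hyal2 calls in A2 against WT MEFs were lost without the filter and with upper quartile scaling (FDR = 0.0792 to 0.385), and in controls also with only the groups compared (FDR = 0.17) and in 4 fits that left out a library (FDR = 0.0502 to 0.147). Upper quartile scaling moved the median log2 fold change of all genes most for A1 against WT with IL-1β, from 0.01 to 0.12. Leaving out 1 library, the number of listed genes called was 6 to 7 for Lkb1-/- against WT, 5 to 8 for A1 and 4 to 6 for A2 against Lkb1-/- MEFs, and 1 for each IL-1β comparison, with Has1 entering some of these fits. The share of all genes called in the fits that left out a library is not given. Depth limits Has1, Lum and Has3, at no more than 21 pairs per library.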

Other observations

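Between Lkb1-/- and WT controls the median log2 fold change of the tested genes was 0.40 on chromosome 15 (706 genes, with Has2), -0.12 on chromosome 13 (755 genes, with Vcan), 0.14 on chromosome 2 (1343 genes, with Cd44), 0.22 on chromosome X (531 genes, with Bgn), 0.17 on chromosome 8 (918 genes, with Has3) and 0.26 on chromosome 17 (856 genes, with Has1). Between A1 and Lkb1-/- controls the same medians were 0.13, -0.05, 0.05, -0.07, -0.37 and -0.38, and between A2 and Lkb1-/- controls 0.23, 0.19, 0.12, -0.09, -0.31 and 0.07.

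Marker genes of the fibroblast list moved apart from each other between the lines. Col1a2, a chain of type I collagen, to which decorin binds, held 780.1 ± 165 CPM in WT controls and 63.0 ± 15.7 CPM in Lkb1-/- controls, whereas Pdgfra, a growth factor receptor of mesenchymal cells, held 4.58 ± 0.997 and 342 ± 63.7 CPM (SD, n = 3 each). Clone A1 controls stood in between for Col1a2 at 246 ± 41.3 CPM, as did clone A2 controls at 128 ± 42.3 CPM. For Pdgfra the clones held 246 ± 64.7 and 358 ± 114 CPM. These genes were picked for naming after their values were seen.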
